A study of Homo sapiens with 6 samples.

Results

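The NRF2 targets and antioxidant enzymes examined here are 38 genes, set against the 23593 named genes of the array. NRF2, encoded by NFE2L2, is the transcription factor that KEAP1 holds back in resting cells. When oxidants or electrophiles modify KEAP1, NRF2 pairs with a small MAF protein and binds antioxidant response elements in its target genes. In liver these targets make and recycle glutathione, reduce thioredoxin, supply NADPH and clear quinones, aldehydes and peroxides, and hepatocellular carcinomas can carry mutations that keep the pathway on. The genes were chosen by name. Of the 38 symbols 37 appear in the array's annotation, and OSGIN1, listed there under its older name OKL38, was found through its gene identifier. The array holds 76 features for them, and each gene is represented by its brightest feature over the 6 arrays (mean log2).

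The samples were HCC-LM3 cells, a human hepatocellular carcinoma line that metastasises readily in mice, grown in culture. In the shASPP2 group the cells carried a lentiviral shRNA against ASPP2, the p53-binding protein encoded by TP53BP2, and in the shNon group a control lentiviral shRNA. RNA was taken 1 week after infection from 3 separate cultures per group and hybridised in 1 colour, with 1 array per culture. The sources used here do not name the shRNA sequence or say whether infected cells were selected. As these are bulk samples of RNA, fewer cells with a transcript and less of it per cell cannot be told apart.

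TP53BP2 was read on the brighter of its 2 features. It had intensities of 228, 216 and 147 on the shASPP2 arrays, against 332, 488 and 452 on the shNon arrays. The groups did not overlap, and 46.2% of the shNon signal was left, with a limma adjusted p of 0.204 and an exact two-sided permutation p of 0.1, the smallest this design allows. The limma adjusted p was 0.0256 to 0.585 over the alternatives. Median feature intensity was 111 to 122 on the 6 arrays, and the random-sequence probes averaged 31.6. Over 2 times that level were 10 of 16 hepatocyte markers in each group, among them FOXA2, HNF4A, APOH and TF. Of these markers FGA, a fibrinogen chain, fell past the threshold, to 1615, 1570.4 and 1418 in shASPP2, against 5344, 4487 and 5449 in shNon (-1.73 log2, limma adjusted p = 0.0296, and 0.0932 to 0.264 with an array left out). The keratin KRT8 averaged 14332 ± 1678 in shASPP2 and 8766 ± 733 in shNon (SD, n = 3), without overlap (0.71 log2, limma adjusted p = 0.244). SERPINA1, TTR, APOA2, APOB and GPC3 were below 2 times the random-probe level in both groups. ALB, the gene of serum albumin, was only just above it, at 68.4 ± 4.69 in shASPP2 and 86.5 ± 5.74 in shNon (SD, n = 3). AFP was above it only in shASPP2, at 70.3 ± 17.6, against 43.6 ± 16.2 in shNon. APOA1 was above it only in shNon, at 64.1 ± 54.9 with 1 array at 127, against 27.4 ± 4.97 in shASPP2. Over that level were also 3 of 8 leukocyte, 1 of 7 endothelial and 4 of 7 fibroblast markers in shASPP2, and 2, 2 and 4 in shNon. The summed endothelial signal was 1062 to 1290 in shASPP2 and 2090 to 2239 in shNon, most of it from PECAM1, while CLDN5, ERG, KDR, TEK and VWF were under 2 times the random-probe level in both groups. The part of these markers in the results was not tested.

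The antioxidant genes had small differences between the groups. In limma 0 of the 38 passed an adjusted p of 0.05, where 0.102% of all genes did (0.0424% higher and 0.0593% lower). At so low a share, a count of 0 does not set the 38 genes apart. Before adjustment 3 of them (7.89%) had a p under 0.05, OSGIN1 higher and GSTA1 and GPX2 lower in shASPP2. The share was 11.5% of all genes (5.54% higher and 5.93% lower) and 14% of genes over 2 times the random-probe level in at least 1 group. Some alternatives gave the 38 a larger share than all genes, as described at the end. Their median log2 fold change was 0.06, against 0.01 for all genes, with 22 values above and 16 below 0. Sizes were small too. The median size was 0.159 log2, against 0.241 for all genes and 0.244 for the 15081 genes over 2 times the random-probe level in at least 1 group. That set takes in genes over the level in only 1 group, so its definition favours larger differences, here and wherever it is used below.

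The intervals of these differences were narrower as a set than those of all genes. The 38 genes were bright, from KEAP1 at the 54.8th percentile of mean level to AKR1B10 at the 99.98th. Neither set compared here was matched for level, and the part of brightness in the widths and sizes was not tested. For 36 of the 38 genes (94.7%) the 95% interval of the difference lay within 2-fold in either direction, against 63.2% of all genes. For 16 of the 38 (42.1%) it lay within 1.5-fold, against 16.5% of all genes and 22.2% of genes over 2 times the random-probe level in at least 1 group. The exceptions at 2-fold were OSGIN1, whose interval reached 1.18 log2, and GSTA1, whose interval reached -1.04 log2. These intervals are per gene and not adjusted for the number of genes. The shASPP2 and shNon arrays did not overlap for 13 genes (34.2%), 8 higher and 5 lower, against 18.8% of all genes (9.3% higher and 9.52% lower) and 23.7% of genes over 2 times the random-probe level. As the genes were chosen with earlier results of these data known, no test was made of that share. All 38 features used were over 2 times the random-probe level in at least 1 group.

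**Figure D1:**
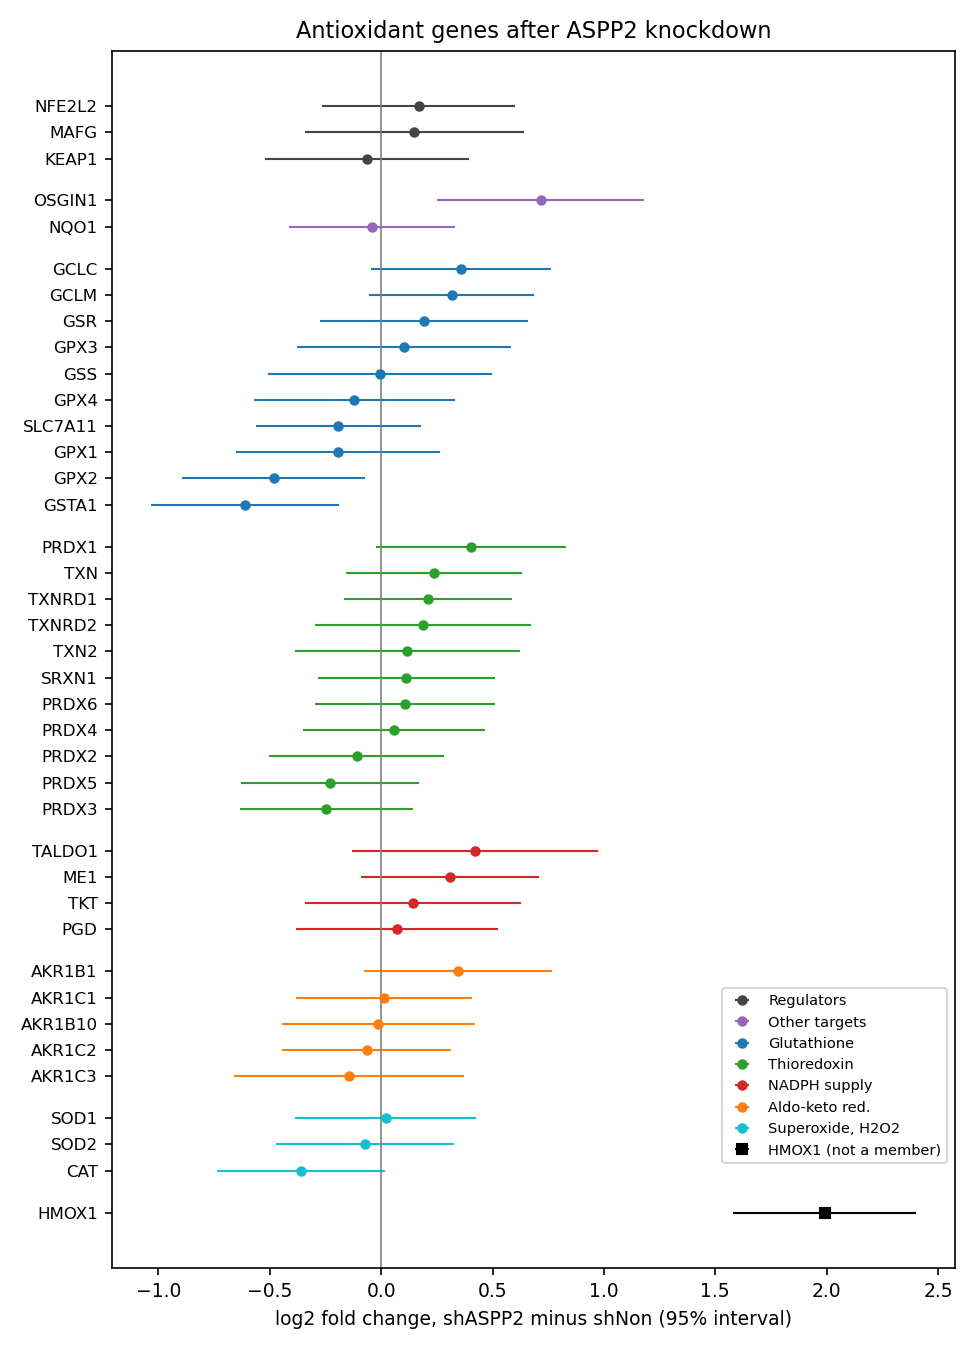
Log2 fold changes (shASPP2 minus shNon, x axis) of the 38 antioxidant genes, coloured by role, with limma 95% intervals from 3 arrays per group, and of HMOX1 below them. The gene values lie between -0.61 and 0.72. HMOX1, shown because it passed the threshold, is at 1.99 with an interval from 1.58 to 2.40.

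The regulators did not pass the test at the level of their own transcripts. NFE2L2 had intensities of 1862, 1852 and 1683 in shASPP2, against 1472, 1454 and 1908 in shNon (log2 fold change 0.17, SE 0.184, limma adjusted p = 0.760). The highest shNon array lay above all shASPP2 arrays, so the groups overlapped. KEAP1, the adaptor that sends NRF2 to degradation, read 167, 169 and 213 in shASPP2, against 214, 164 and 195 in shNon (-0.065, SE 0.195). MAFG, a small MAF partner of NRF2, read 2795, 3358 and 3764 in shASPP2, against 2443, 3177 and 3335 in shNon (0.15, SE 0.208), with 0.12 on its second feature. For both genes the groups overlapped. NRF2 is controlled mainly through the stability of its protein, which arrays do not measure.

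NQO1, the quinone reductase often used as a readout of NRF2 activity, had close means in the groups. Its intensities were 21666, 21999 and 20244 in shASPP2, against 23006, 21765 and 20926 in shNon. The log2 fold change was -0.040 (SE 0.158, 95% interval -0.41 to 0.33, limma adjusted p = 0.943). A dimmer NQO1 feature, at 4882 ± 503 in shASPP2 and 6102 ± 262 in shNon (SD, n = 3), had -0.33 with a limma adjusted p of 0.524 over all features.

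OSGIN1, a growth inhibitor induced by oxidative stress, had the largest difference among the 38. It lies on chromosome 16, and the feature used spans 82544362 to 82557298 (hg18). Its intensities were 1366, 1688 and 1707 in shASPP2, against 821, 1121 and 966 in shNon. All shASPP2 arrays lay above all shNon arrays. The log2 fold change was 0.72 (SE 0.197, limma adjusted p = 0.272), a ratio of 1.64. The second feature had 0.69.

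GSTA1 and GPX2 had the lowest values. GSTA1, an alpha-class glutathione transferase of hepatocytes (chromosome 6, 52764346 to 52776616, hg18), read 2409, 2174 and 2231 in shASPP2, against 3659.8, 2958 and 3857 in shNon. Every shASPP2 array lay below every shNon array, with a log2 fold change of -0.61 (SE 0.179, limma adjusted p = 0.296). Its other features had -0.45 and -0.58. GPX2, the glutathione peroxidase of gut epithelium (chromosome 14, 64475625 to 64479216, hg18), read 16409.7, 20103 and 16754 in shASPP2, against 25054, 22931 and 26288 in shNon. These groups did not overlap either (-0.48, SE 0.174, limma adjusted p = 0.369), and the second feature had -0.35. With trend and robust variance in limma, where 2.14% of all genes passed (0.996% higher and 1.15% lower), these 3 genes and no other of the 38 passed. Over all alternatives, that one included, the limma adjusted p was 0.0210 to 0.668 for OSGIN1, 0.0195 to 0.679 for GSTA1 and 0.0202 to 0.721 for GPX2. Alpha-class transferases are close paralogues, and whether GSTA1 features also read GSTA2 was not tested. The feature of GSTA2 read 1172 ± 201 in shASPP2 and 1533 ± 129 in shNon (SD, n = 3).

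**Figure D2:**
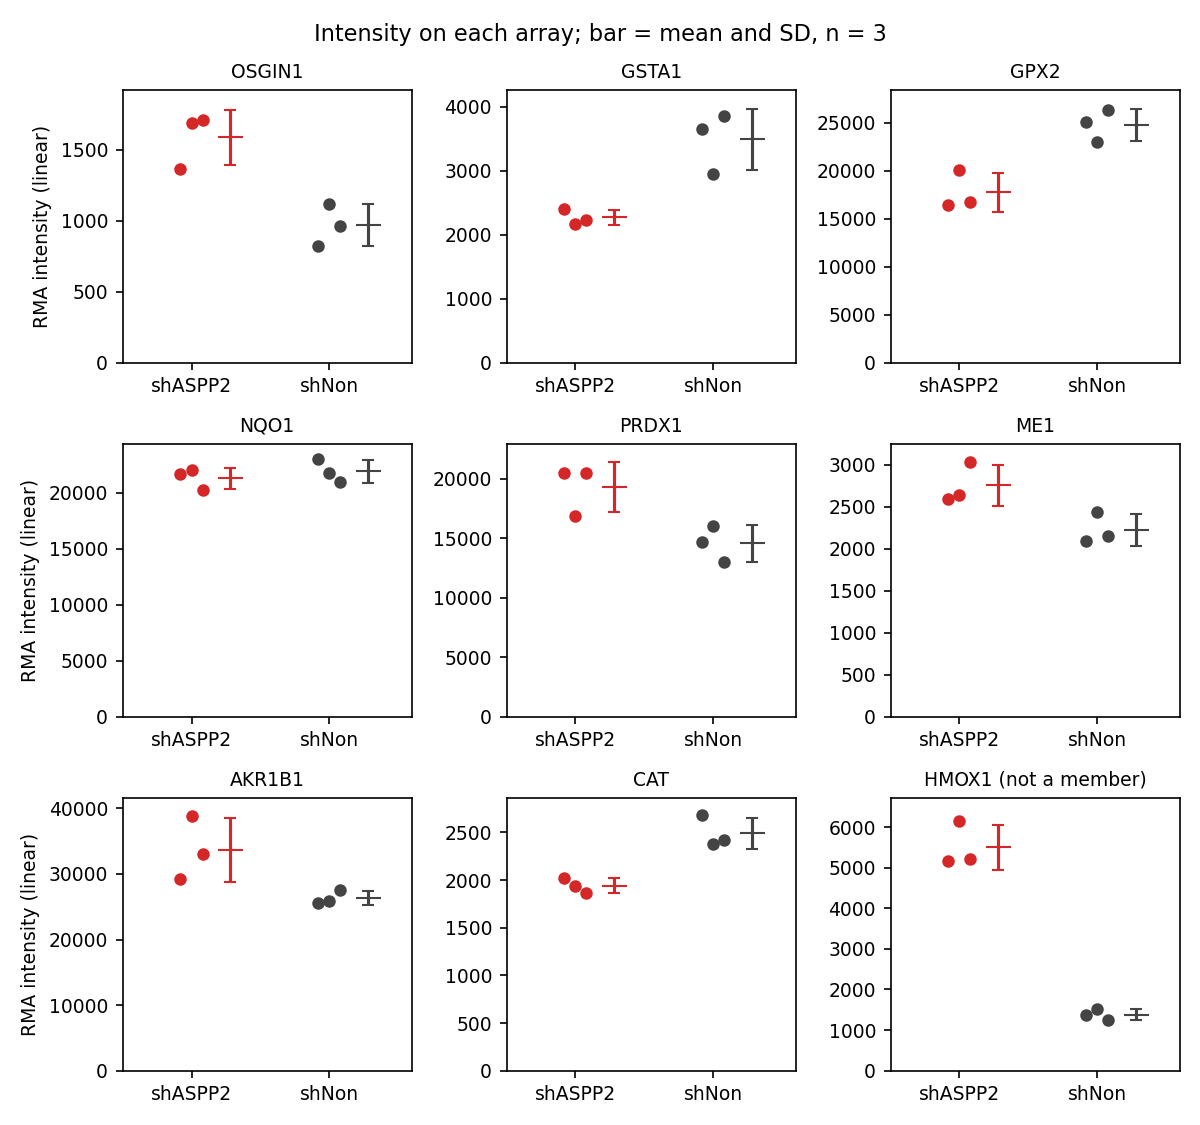
RMA intensity on a linear axis from 0 for 9 genes on each array, shASPP2 left of shNon, with the mean and SD of 3 arrays beside the points. OSGIN1, PRDX1, ME1, AKR1B1 and HMOX1 have all shASPP2 arrays above all shNon arrays, GSTA1, GPX2 and CAT have them below, and NQO1 overlaps.

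Windows around the transcription starts of these genes were searched for the antioxidant response element, since NRF2 is known to act through it. The search took the core TGACNNNGC on both strands (GCNNNGTCA on the other), in windows from 250 bases before to 50 bases after a start, from RefSeq on GRCh38.p14. Windows were matched for 30 of the 38 genes, 43 windows in all. The core was found in 7 of these windows (16.3%), against 13.3% of all 35116 windows, so its share was close to that of promoters at large. The 6 genes with a match were GCLM, GPX2, KEAP1, ME1, PGD and TXNRD1. Their log2 fold changes ran from -0.48 to 0.32, against -0.61 to 0.72 for the 24 genes with windows and no match. Known elements of such genes can lie farther upstream than these windows. 5 windows are shown with the core in capitals: those of the 3 genes with the smallest p, and those of GCLM and TXNRD1, enzymes of glutathione and thioredoxin supply. They are chr16:83952990-83953289 (+ strand) for OSGIN1, chr6:52803767-52804066 (- strand) for GSTA1, chr14:64942696-64942995 (- strand) for GPX2, chr1:93909381-93909680 (- strand) for GCLM and chr12:104286782-104287081 (+ strand) for TXNRD1.
OSGIN1: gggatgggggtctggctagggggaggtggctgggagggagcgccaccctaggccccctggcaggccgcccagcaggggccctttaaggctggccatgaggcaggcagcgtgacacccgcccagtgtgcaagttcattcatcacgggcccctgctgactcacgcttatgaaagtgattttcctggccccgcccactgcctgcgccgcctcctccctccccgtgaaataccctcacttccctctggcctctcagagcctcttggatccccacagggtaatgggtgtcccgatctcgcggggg
GSTA1: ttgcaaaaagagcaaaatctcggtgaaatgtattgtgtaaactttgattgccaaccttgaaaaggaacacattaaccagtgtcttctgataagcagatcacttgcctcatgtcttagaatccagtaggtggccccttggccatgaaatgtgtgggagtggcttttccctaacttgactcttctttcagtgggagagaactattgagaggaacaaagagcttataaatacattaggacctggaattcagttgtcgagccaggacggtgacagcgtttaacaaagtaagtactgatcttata
GPX2: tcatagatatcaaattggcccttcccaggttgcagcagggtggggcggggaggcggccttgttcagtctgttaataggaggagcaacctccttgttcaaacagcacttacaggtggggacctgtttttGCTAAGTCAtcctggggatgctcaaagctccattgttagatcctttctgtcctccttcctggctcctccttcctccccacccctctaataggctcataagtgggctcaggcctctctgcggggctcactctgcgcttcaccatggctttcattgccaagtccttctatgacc
GCLM: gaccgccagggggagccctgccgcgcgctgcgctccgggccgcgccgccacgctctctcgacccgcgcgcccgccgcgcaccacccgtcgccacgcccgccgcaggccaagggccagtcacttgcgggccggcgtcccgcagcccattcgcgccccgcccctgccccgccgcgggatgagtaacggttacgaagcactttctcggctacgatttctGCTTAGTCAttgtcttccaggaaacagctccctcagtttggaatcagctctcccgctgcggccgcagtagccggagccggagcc
TXNRD1: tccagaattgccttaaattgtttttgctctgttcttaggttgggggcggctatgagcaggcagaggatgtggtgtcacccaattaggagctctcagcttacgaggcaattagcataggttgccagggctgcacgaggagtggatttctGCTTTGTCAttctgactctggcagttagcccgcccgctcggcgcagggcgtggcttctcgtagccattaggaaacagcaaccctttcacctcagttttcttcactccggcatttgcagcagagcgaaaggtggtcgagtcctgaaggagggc
GPX2, GCLM and TXNRD1 each hold 1 match in the window shown, all in the form GCNNNGTCA. Another TXNRD1 window, not shown, holds 2. Of the 6 genes with a match, GCLM, ME1, TXNRD1 and PGD had log2 fold changes above 0 and GPX2 and KEAP1 below 0, none past the threshold. Whether the core had a part in these values was not tested. The windows of OSGIN1 and GSTA1 hold none.

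Glutathione synthesis, recycling and use were covered by 10 genes. They had a median log2 fold change of -0.06, and no gene passed over all genes. Both subunits of the enzyme that limits glutathione synthesis had all shASPP2 arrays above all shNon arrays. The catalytic subunit GCLC read 899, 827 and 743 in shASPP2, against 655, 681 and 587 in shNon (0.36, SE 0.171, limma adjusted p = 0.485). The modifier subunit GCLM read 5271, 5141 and 4807 in shASPP2, against 3938, 4217 and 4067 in shNon (0.32, SE 0.157, limma adjusted p = 0.499). For neither gene did the groups overlap, and second features gave 0.33 and 0.36, but neither gene was past an unadjusted p of 0.05.

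Besides GSTA1, GPX2, GCLC and GCLM, described above, the other glutathione genes lay within 0.2 log2 of 0. SLC7A11, the cystine importer that feeds synthesis, averaged 4246 ± 235 in shASPP2 and 4845 ± 75.0 in shNon (SD, n = 3). Its log2 fold change was -0.19 on this feature but 0.03 and 0.11 on its others, so that its direction was not settled. GSS, which completes glutathione synthesis, had -0.0045 (SE 0.214), and GSR, which reduces oxidised glutathione, had 0.19 (SE 0.198). Among the peroxidases, GPX1 had -0.19, GPX4, which protects membrane lipids, -0.12, and the secreted GPX3 0.10. For GPX1 1 further feature pointed the other way, at 0.08.

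The thioredoxin system was covered by 11 genes, 8 above and 3 below 0, with a median of 0.11 log2 and none past an unadjusted p of 0.05. PRDX1, a cytosolic peroxiredoxin, had the smallest p of these genes. It read 20475, 16850.2 and 20514 in shASPP2, against 14689, 16051 and 12990.0 in shNon (0.40, SE 0.181, limma adjusted p = 0.460). Its lowest shASPP2 array was above its highest shNon array by a small margin, and the second feature had 0.27. Thioredoxin itself, TXN, averaged 15875 ± 597 in shASPP2 and 13509 ± 1330.3 in shNon, and its reductase TXNRD1 14235 ± 691 in shASPP2 and 12314 ± 662 in shNon (SD, n = 3 each). Neither gene's arrays overlapped between the groups, with log2 fold changes of 0.24 and 0.21.

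Mitochondrial and other members of that system gave no common direction. TXN2 had 0.12 and TXNRD2 0.19, both mitochondrial, while the mitochondrial PRDX3 had -0.25 (3976 ± 110.0 in shASPP2 and 4729 ± 438 in shNon, SD, n = 3). The arrays of PRDX3 did not overlap. PRDX5 had -0.23, PRDX2 -0.11, the endoplasmic reticulum form PRDX4 0.057 and PRDX6 0.11. SRXN1, the sulfiredoxin that repairs overoxidised peroxiredoxins, had 0.11 (SE 0.168, limma adjusted p = 0.828).

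NADPH supply was covered by 4 genes, with log2 fold changes from 0.071 to 0.42 and a median of 0.23. ME1, malic enzyme, had the smallest p of them and read 2596, 2634 and 3036 in shASPP2, against 2087, 2440.5 and 2145 in shNon (0.31, SE 0.170, limma adjusted p = 0.541). Its groups did not overlap, and its second feature had 0.38. Transaldolase, TALDO1, averaged 21625 ± 1887 in shASPP2 and 16480 ± 4152 in shNon (SD, n = 3). That difference of 0.42 log2 rested on a wide spread, since shNon array 2 read 11864 and the other shNon arrays 19909 and 17666. With an array left out it was 0.20 to 0.58. Transketolase, TKT, had 0.14, and PGD, an NADPH-producing enzyme of the pentose phosphate pathway, 0.071. PGD was below 0 without shASPP2 array 2 or shNon array 2, at -0.047 and -0.027.

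The aldo-keto reductases, which reduce aldehydes and ketones, were 5 genes with a median of -0.013 log2. AKR1B1, aldose reductase, had the smallest p and read 29232, 38861 and 32995 in shASPP2, against 25646, 25861 and 27558 in shNon (0.35, SE 0.179, limma adjusted p = 0.516). Its groups did not overlap. AKR1B10, which many liver tumours express highly, averaged 40647 ± 4805 in shASPP2 and 40976 ± 4357 in shNon (SD, n = 3), a difference of -0.013 log2 (SE 0.184). AKR1C1 had 0.012, AKR1C2 -0.065 and AKR1C3 -0.14. The AKR1C genes form a family of close paralogues, and whether their features share signal was not tested. The RefSeq promoter windows of AKR1C1 and AKR1C2, which are not the transcripts the array reads, matched at 98.6% of 292 aligned bases. The brightest feature of each array read 47614 to 52337, so AKR1B10 lay near the top of the scale, and compression of its difference there was not tested.

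For superoxide and hydrogen peroxide, 3 genes were measured. Catalase, CAT, read 2024, 1941 and 1863 in shASPP2, against 2679, 2381 and 2416 in shNon. All shASPP2 arrays were the lower ones, and the log2 fold change was -0.36 (SE 0.160, limma adjusted p = 0.458), with -0.37 on the second feature. Neither superoxide dismutase passed the test. Cytosolic SOD1 had 0.019 (95% interval -0.39 to 0.43) and mitochondrial SOD2 -0.073 (95% interval -0.47 to 0.33).

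Features of the same gene could be compared for 26 of the 38 genes. Of their 38 other features, 31 had the sign of the feature used. The 7 that did not belong to AKR1C1, GPX1, PRDX2 and SLC7A11, genes within 0.2 log2 of 0. None of the 76 features passed in the limma fit over all 45033 features, where the smallest adjusted p was 0.271.

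**Figure D3:**
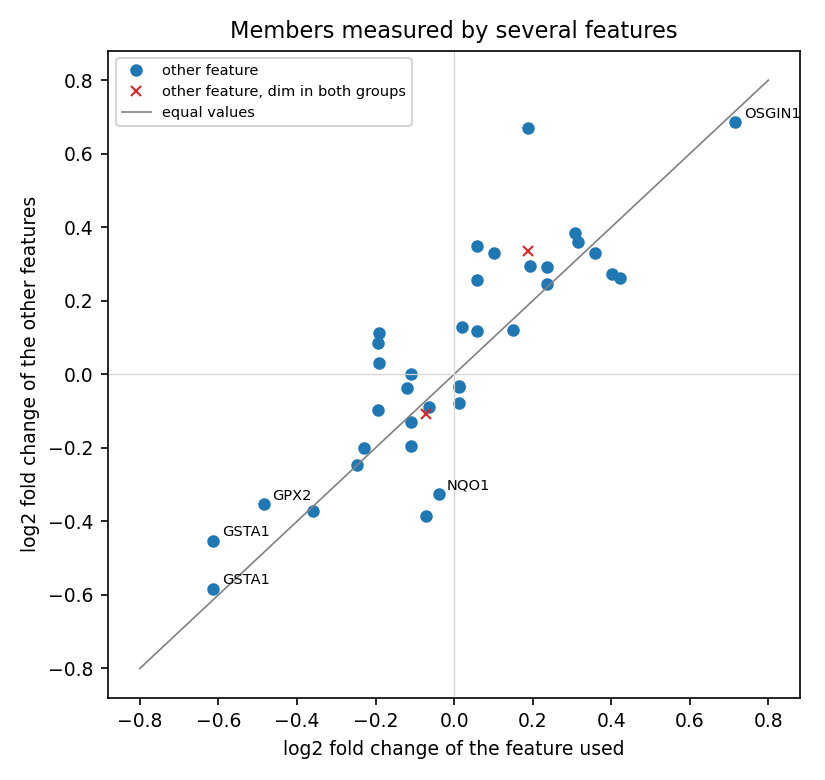
Log2 fold change of the feature used (x axis) against that of each other feature of the same gene (y axis), for the 26 genes with several features. OSGIN1 at 0.72 and 0.69 and GSTA1 at -0.61, -0.58 and -0.45 keep their sign on all features.

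Other genes of the pathway were read for comparison. Of 106 listed, 104 were on the array under a name that could be matched. Over all genes 1 rose and 1 fell past the threshold in limma, HMOX1 and NOX1. At an unadjusted p under 0.05 there were 12 higher and 8 lower (19.2%), and the list's median was 0.06 log2. The share was 11.5% of all genes and 14% of genes over 2 times the random-probe level in at least 1 group. Of the 104 genes, 7 were under that level in both groups. HMOX1, the inducible haem oxygenase and a classic target of NRF2 and of the repressor BACH1, read 5156, 6140.3 and 5216 in shASPP2, against 1380.1, 1509.6 and 1259 in shNon. It rose by 1.99 log2 (SE 0.174, limma adjusted p = 0.0230), and its second feature had 1.78. The lower bound of its interval, 1.58, lay above the upper bound of every one of the 38 genes, the highest being 1.18 for OSGIN1. HMOX1 had the largest rise of the 104 genes and is named because it passed. The intervals are not adjusted, so that gap is a description and was not tested. Without any single array the adjusted p of HMOX1 was 0.0843 to 0.223, in fits with fewer samples. NOX1, an oxidase that makes superoxide, fell to 45.2, 75.0 and 58.9 in shASPP2, against 369, 505 and 564 in shNon (-3.01, SE 0.260, limma adjusted p = 0.0230). Its shASPP2 mean did not reach 2 times the level of random probes, which leaves the size uncertain. Its other bright features had -2.82 and -2.90. Without any 1 of 5 arrays, all but shNon array 1, its limma adjusted p was 0.0908 to 0.202. Without shNon array 1 it was 0.04998, just under the threshold.

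Of the other pathway genes with the smallest p, none passed over all genes. BACH2, a relative of BACH1, read 145, 117 and 128 in shASPP2, against 40.1, 46.7 and 63.4 in shNon (1.39, SE 0.222, limma adjusted p = 0.111). It was dim in shNon, with a mean of 50.1 against 130 in shASPP2, where 2 times the random-probe level was 63.2. Among genes whose mean log2 over the 6 arrays was over that level, it passed (limma adjusted p = 0.0392). It entered that filter only through its shASPP2 arrays, so this call is no separate support. TXNIP, which binds and inhibits thioredoxin, had 0.79 and CHAC2, which breaks down glutathione, 0.88. The glutaredoxin GLRX2 had 0.91, on the 1 of its features that was not dim. GSTA4, which conjugates lipid aldehydes, had -0.70, with -0.56 to -0.75 on its other features. It passed with trend and robust variance (limma adjusted p = 0.0202). The extracellular superoxide dismutase SOD3 had 0.95 and the coactivator CREBBP 0.55. AKR1D1, dim in both groups, read 32.3 ± 5.04 in shASPP2 and 50.3 ± 4.46 in shNon (SD, n = 3), but 31.2 ± 3.73 in shASPP2 and 31.5 ± 7.69 in shNon on its second feature, also dim. BACH1, named after its value was seen, read 452, 427 and 389 in shASPP2, against 552, 559.7 and 663 in shNon (-0.48, SE 0.172, limma adjusted p = 0.366). Its groups did not overlap. Its second bright feature had -0.64. The ferritin chains FTH1 and FTL, also NRF2 targets, had 0.056 and -0.0077. Both chains, and GSTA2 above, were likewise named after their values were seen.

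**Figure D4:**
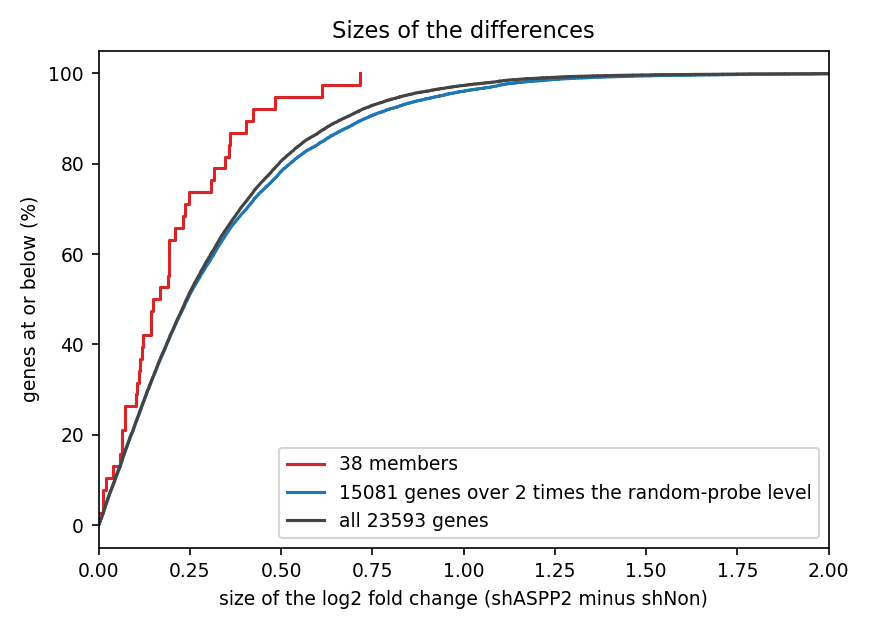
Share of genes (y axis, percent) whose log2 fold change is at or below a given size (x axis), for the 38 antioxidant genes, for the 15081 genes over 2 times the random-probe level in at least 1 group and for all 23593 genes. Of the 38 genes, 36 lie under 0.5 log2, against 78.3% of the brighter genes and 80.6% of all genes. Neither wider set was matched to the 38 for level.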

How the data were processed

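For each feature the authors deposited a linear intensity in every sample, for which the submitters' processing notes name RMA. No source used here gives RMA's version or settings. RMA as usually defined equalises arrays and can make fold changes of dim features too small. The files held 45033 features, 45031 of them of 3 probes, beside 1 row of 2508 random-sequence probes, which entered no test. The deposited value table of the series held the same intensities, with 0 differing cells. Symbols came from gene identifiers (38916 features) or accessions (78) in RefSeq's gene list for GRCh38.p14, and the file's name was kept for 3954. Array positions are on hg18.

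Log2 intensities of 23593 genes, 1 feature each, were fitted with limma 3.58.1 (lmFit, eBayes) under R 4.3.3, on group alone. Tests were two-sided and adjusted by Benjamini-Hochberg over all genes, with a threshold of 0.05. The fit was tested on simulated data. Errors are SDs over 3 arrays or limma's standard errors (SE). Precision depends on spread and on the number of arrays, 3 cultures a side, for which the exact permutation test gives p = 0.1 at the smallest. The shNon arrays varied more, with a median SD over genes of 0.311 log2, against 0.227 in shASPP2. Log2 intensities correlated at 0.958 to 0.972 among shNon arrays and 0.983 to 0.985 among shASPP2 arrays. Between the groups they correlated at 0.960 to 0.978.

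The genes, lists and tests were chosen with earlier results of these data known. Values per array are given for the regulators, NQO1, genes with an unadjusted p under 0.05 and the gene with the smallest p of each remaining role. GCLC, GCLM and arrays of TALDO1 were added after their values were seen. Of the other pathway genes, those past the threshold and the next 8 by p are named. The alternatives were other scalings, filters, variance models, a replicate block, the mean of all features and leaving out each array.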

Additional observations from a re-analysis of the deposited data

How the results depend on the processing

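With 3 samples per group, intervals of 2 of the 38 genes reached past 2-fold. Dim features bound the sizes for NOX1 and BACH2. The count of antioxidant genes past the threshold was 0 in the fit reported and under all alternatives except trend and robust variance, where it was 3. With trend and robust variance TP53BP2 passed as well (-1.11 log2, limma adjusted p = 0.0256). The count of the 38 at an unadjusted p under 0.05 was 3 in the fit reported, against 2705 of all 23593 genes. Among genes over 2 times the random-probe level it was 7, against 2310 of all 13875 such genes. Among genes over the median level it was 8, against 2223 of all 11796. With trend and robust variance it was 10, 7 higher and 3 lower, against 3067 of all 23593 genes (1501 higher and 1566 lower). With the mean of all features it was 5, against 2939 of all 23593. In each of these alternatives the share of the 38 was above that of all genes tested. In the fit reported it was below, at 7.89% against 11.5%. Over all genes, 24 passed in the fit reported, 130 over 2 times the random-probe level, 268 over the median level, 506 with trend and robust variance and 40 with the mean of all features, and 0 to 6 with an array left out. The filters change both the number of genes adjusted over and the variance prior, and the parts of each were not separated. Of the other pathway genes 2 passed in the fit reported and 0 to 1 with an array left out. Of 570 values of the 38 genes under 15 alternatives, 21 changed sign, all in 9 genes within 0.12 log2 of 0. AKR1C1 was -0.031 after median centring, -0.024 after cyclic loess and -0.033 with the mean of all features. SOD1 was -0.023 after median centring and -1.45e-04 after cyclic loess, and GSS was 0.0027 with array weights. With an array left out the ranges were -0.10 to 0.089 for AKR1B10, -0.056 to 0.085 for AKR1C1, -0.11 to 0.16 for GSS, -0.18 to 0.020 for KEAP1, -0.047 to 0.15 for PGD, -0.023 to 0.12 for PRDX4, -0.073 to 0.10 for SOD1, -0.13 to 0.015 for SOD2 and -0.013 to 0.25 for TXN2. In all, 24 of the 38 values moved by over 1.5 times or in sign with an array left out, 23 of them within 0.2 log2 of 0 and none past the threshold. Among those that kept their sign were TALDO1 (0.20 to 0.58), TKT (0.030 to 0.27), MAFG (0.012 to 0.27), GPX3 (3.91e-04 to 0.25), GPX4 (-0.21 to -0.0020) and AKR1C3 (-0.34 to -0.046).

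The replicate numbers are shared between the groups, but deviations of same-numbered arrays correlated at 0.08, -0.10 and -0.14, so they were not taken as pairs. With the replicate block 0 of all genes and 0 of the other pathway genes passed in limma (2208 and 10 at an unadjusted p under 0.05), and 0 of the 38 did (2 at an unadjusted p under 0.05). HMOX1 and NOX1 thus lost their calls there, with adjusted p-values of 0.270 and 0.207. The block estimates more terms from the same arrays.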
